A study of Mus musculus with 13 samples.

Results

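Adrenal glands were compared 24 hours after TAM (tamoxifen), the agent that induces deletion of Star in these mice, with glands from before TAM. The groups were taken from the sample titles and hold 9 of the 13 libraries of the series, 5 from before TAM (replicates 1 to 5) and 4 from 24 h after it (replicates 1 to 4). All are labelled as adrenal gland of C57BL/6 mice, with libraries prepared by a stranded mRNA kit. The promoter that drives the inducible deletion, the dose of TAM, and the age and sex of the mice are not given in the sources used here. No samples of mice that received TAM without the deletion were analysed here, so TAM, the time of sampling and the loss of Star cannot be told apart. Whether the libraries come from different animals is not stated in the labels, and p-values therefore measure only how these libraries spread.

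Star brings cholesterol from the outer to the inner mitochondrial membrane, where steroid synthesis starts. Cells of the adrenal cortex that cannot move cholesterol inward keep taking it up and store it as ester droplets, and they make little corticosterone or aldosterone. Macrophages of the gland take up dying cells and lipid, and interferon genes, cytokines and the amino acid response driven by ATF4 (a transcription factor that is translated under stress) are common parts of tissue injury.

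In outline, 10 of 12 genes of lipid-laden macrophages, 13 of 17 lysosomal genes, 16 of 26 interferon-induced genes, 9 of 15 cytokine and NF-kB genes and 9 of 22 targets of ATF4 were higher at 24 h. Of all genes tested 9.19% were higher and 5.78% lower. When any 1 library was left out, these list counts ran from 8 to 11, 9 to 15, 10 to 20, 4 to 12 and 7 to 19. Genes of the zona glomerulosa (the outer cortex, which makes aldosterone) and of cholesterol synthesis included members that fell. Counts are given for the fit of all 9 libraries, for the fit without 24 h replicate 3, and for the fit with 24 h replicates 1 and 2 alone, because replicates 3 and 4 stand apart. Levels are FPKM as deposited (fragments scaled to transcript length and to library total), given in order of replicate, and fold changes are log2 ratios of 24 h to before from edgeR's quasi-likelihood test. A gene was called when its adjusted p (Benjamini-Hochberg, over all genes tested) was under 0.05.

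The 9 libraries held 17872396 to 27309429 listed reads. Medulla markers, from the catecholamine-making core of the gland, summed to 1591 to 6742 FPKM over the 16 genes before TAM and to 5808, 3010.0, 30.5 and 200.3 FPKM in 24 h replicates 1 to 4. Replicates 3 and 4 thus held almost no medulla RNA, and Chga, which packs the medulla's secretory granules, stood at 5.27 and 24.5 FPKM there against 462 to 1911 FPKM before. Replicate 3 also held almost none of the steroid enzymes Cyp21a1 (2.42 FPKM against 5060.3 to 8225 before) and Cyp11b1 (1.07 against 1911 to 4066), nor of the ACTH receptor gene Mc2r (0.132 against 201 to 301). Hsd3b1, at 3024 FPKM, and Nr5a1, at 104 FPKM, were present in it, and Gata4, a transcription factor gene, was at 83.04 FPKM against 0.567 to 6.81 before. Genes with no transcript in the before table add to this, of which 3 were chosen after their values were seen. Gdf9, a growth factor of oocytes, stood at 0.834, 0.703, 49.9 and 0.626 FPKM in 24 h replicates 1 to 4, and Dppa3, a gene of germ cells and early embryos, at 0.920, 0.775, 35.7 and 0.718 FPKM. Cyp17a1, a steroid enzyme of the gonads, stood at 0.572, 0.926, 4.87 and 0.270 FPKM. Each was highest in replicate 3. These values go against an adrenal gland of usual makeup in that library, which is called here the library labelled 24 h replicate 3, and what tissue it holds was not tested.

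Xist, the RNA that coats the inactive X chromosome of female cells, stood at 37.8, 32.05, 29.6, 34.3 and 35.6 FPKM before TAM and then 23.6, 17.7, 0.0374 and 0.0101 FPKM at 24 h. It was thus nearly missing from 24 h replicates 3 and 4 only, and the part of this difference in the results was not tested. The fit with replicates 1 and 2 alone compares libraries that all hold Xist, though at unlike levels. In that fit Xist was called lower at 24 h (log2 fold change -0.68, adjusted p = 0.017). The X zone, an inner cortical layer that differs between sexes and with age, also varied, and its 4 markers summed to 669.9, 171, 617, 2203 and 1286 FPKM before and to 995, 547, 15.5 and 1.90 FPKM at 24 h. The sums of 24 h replicates 3 and 4 lay below all others. The 12 fat-cell markers summed to 199.8, 2159, 2535, 2383 and 2917 FPKM before and to 6000.0, 2559, 76.1 and 2611 FPKM at 24 h. Fat RNA was low in before replicate 1 and in 24 h replicate 3. Bulk RNA does not tell fewer cells of a type from less RNA per cell.

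**Figure D1:**
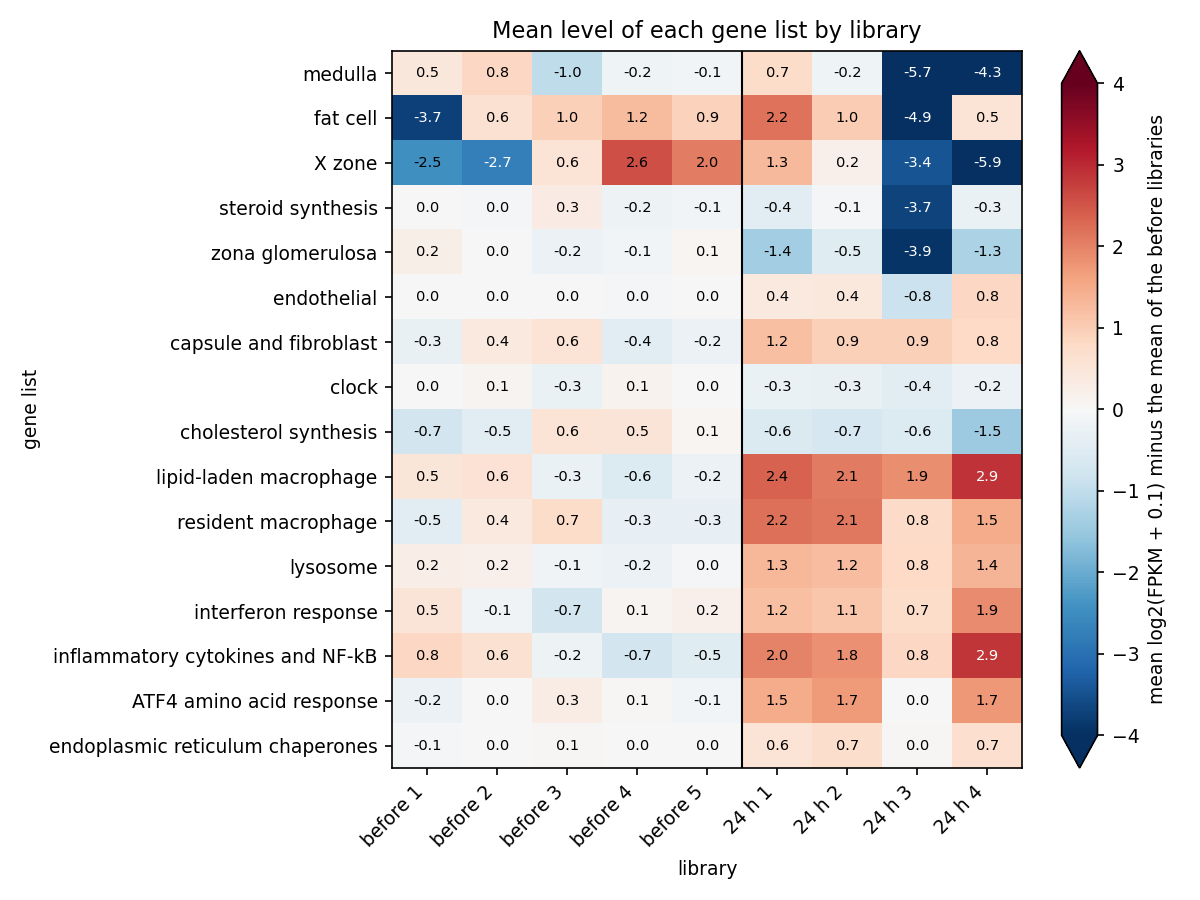
Each cell gives the mean of log2(FPKM + 0.1) over a gene list (rows) in 1 library (columns), minus the mean of the 5 before libraries, on a colour scale that ends at 4 in either direction. The medulla row reads -5.7 and -4.3 in 24 h replicates 3 and 4, the steroid synthesis row -3.7 in replicate 3, while the lipid-laden macrophage row lies between 1.9 and 2.9 in all 4 libraries at 24 h.

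Star lies on chromosome 8, from 25808513 to 25816119 of mm10 on the plus strand. It stood at 3207, 3763, 4239, 4083 and 3694 FPKM before TAM and at 487, 626, 17.4 and 208 FPKM at 24 h, and every 24 h library lay below every before library (adjusted p = 0.024, log2 fold change -3.40, SE 0.83). The fold change was -2.98 without replicate 3 (SE 0.35, adjusted p = 0.00074) and -2.67 with replicates 1 and 2 alone (SE 0.24, adjusted p = 0.0006). With all 9 libraries the spread at 24 h is large, and the call is lost without before replicate 4 (adjusted p = 0.052), before replicate 5 (0.051) or 24 h replicate 4 (0.067).

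In the deposited table Star has 3 transcript models that cover 1 span, one named with a deletion, one named without it and the plain RefSeq entry. Summed over the models lacking the deletion, the level was 2775, 3715, 3941, 3621 and 3301 FPKM before and 24.4, 59.2, 4.34 and 27.6 FPKM at 24 h. In the model with the deletion it was 432, 48.3, 298, 462 and 393 FPKM before and 463, 567, 13.1 and 180.5 FPKM at 24 h. The intact models were thus low in all 4 libraries at 24 h, while the levels of the deleted model in replicates 1 and 2 lay at or just above the highest level before, and those in replicates 3 and 4 below most of the before libraries.

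As a share of all Star FPKM, the deleted model made up 13.5, 1.28, 7.02, 11.3 and 10.6% before and 95.0, 90.6, 75.1 and 86.8% at 24 h. The groups did not overlap, and the difference was 78.1 percentage points (two-sided exact permutation test, p = 0.0159, the smallest that 4 libraries against 5 can give). Without any 1 library the difference lay between 75.4 and 82.0 points. Replicate 3, in which most cortical enzymes were nearly missing, had the lowest share of the 4. Before replicate 2 held its reads in the plain RefSeq entry (3715 FPKM, against at most 2.51 in the other before libraries) and had 0.331 FPKM in the model named without the deletion. The models share most of their sequence, so the split of reads among them is an estimate, and a share before TAM need not be deleted transcript.

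**Figure D2:**
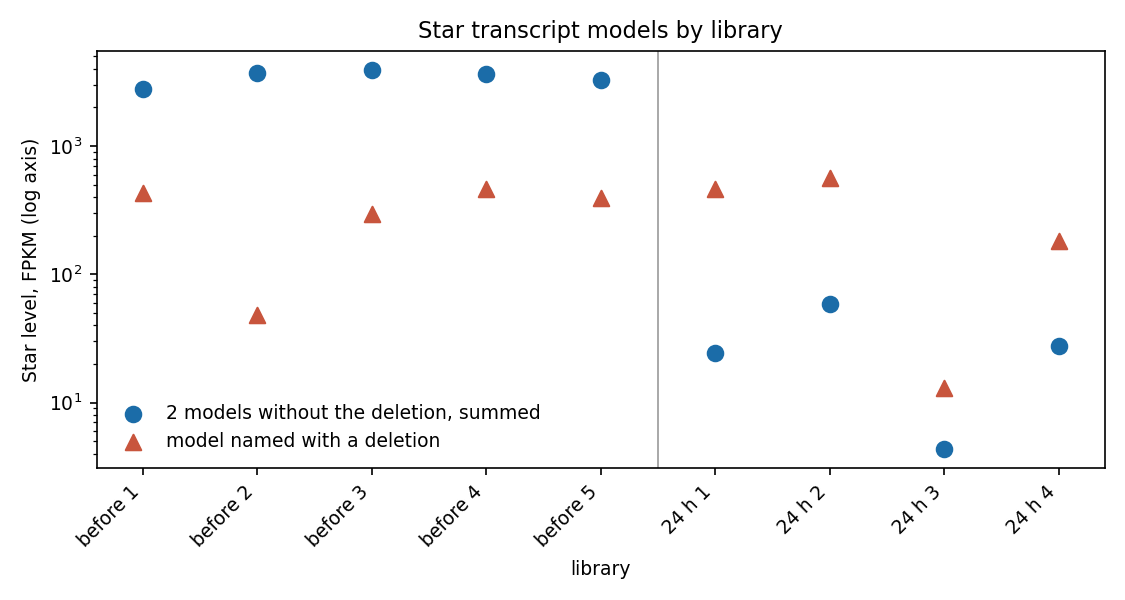
Star level in FPKM on a log axis by library, with circles for the sum of the models without the deletion and triangles for the model named with it. The circles fall from 2775 to 3941 FPKM before TAM to 4.34 to 59.2 FPKM at 24 h, while triangles of both groups overlap.

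Of 14073 genes tested, 1294 were called higher at 24 h (9.19% of those tested) and 814 lower (5.78%), 15.0% in all. Without replicate 3 the counts were 2167 higher (15.4%) and 1684 lower, 27.4% in all. With replicates 1 and 2 alone they were 1847 (13.1%) and 1533 (10.9%), or 24.0% in all. Of the genes called higher with all libraries 97.5% were also called higher without replicate 3 and 86.6% with replicates 1 and 2 alone. Of those called lower the shares were 97.1% and 83.0%. In all 3 fits 1118 genes rose (7.94%) and 671 fell (4.77%). The groups did not overlap for 1295 genes higher (9.20%) and 1246 lower (8.85%). The counts also depended on the before libraries, with 861 higher and 469 lower without before replicate 2, 752 and 416 without before replicate 4, and 766 and 408 without before replicate 5. The median log2 fold change of all genes was 0.02. Counts of list members below are to be read beside these shares, and a list with few calls can lie near them.

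**Figure D3:**
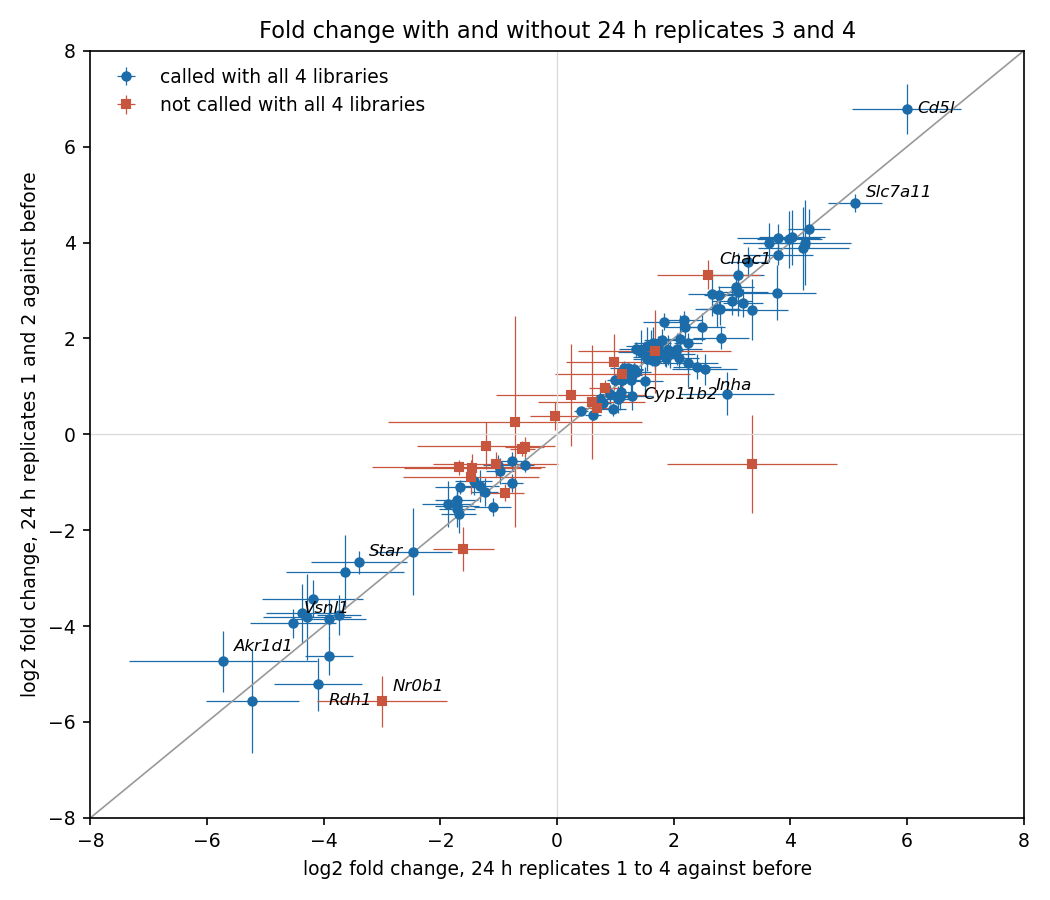
Log2 fold change of each gene named here with all 4 libraries at 24 h (horizontal) and with replicates 1 and 2 alone (vertical), with bars of 1 SE, and the line of equal values. Nr0b1 moves from -3.01 to -5.57, Star from -3.40 to -2.67 and Cd5l from 5.99 to 6.78.

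Genes of lipid-laden macrophages, which take up and break down lipid, were higher in 10 of 12 cases, and 0 were lower. Their median log2 fold change was 2.09. The list summed to 1445 to 2258 FPKM before TAM and to 3967 to 7317 FPKM at 24 h. Which cells held this RNA was not tested. Without replicate 3 the count was 11 and with replicates 1 and 2 alone 10, and it ran from 8 to 11 when any 1 library was left out. Gpnmb, a membrane glycoprotein of such cells, stood at 31.4, 41.2, 6.29, 2.67 and 7.78 FPKM before TAM and then 289, 219, 270.0 and 511 FPKM at 24 h (adjusted p = 0.0072, log2 fold change 4.22, SE 0.78). It had the highest level in replicate 4, and the groups did not overlap. Fabp5, a fatty acid carrier, went from 47.2, 53.99, 19.7, 31.3 and 33.8 to 277, 207, 316 and 525 FPKM (adjusted p = 0.0012, log2 fold change 3.19, SE 0.35). Spp1, which encodes the secreted protein osteopontin, went from 25.2, 30.8, 35.6, 25.8 and 14.98 to 216, 139.9, 145 and 330.1 FPKM (adjusted p = 0.0014, log2 fold change 3.00, SE 0.35). Lgals3, a galactose-binding lectin of macrophages, ranged from 11.3 to 64.4 FPKM before and stood at 254, 214, 244 and 920.1 FPKM at 24 h, with replicate 4 far above the others (adjusted p = 0.0061, log2 fold change 3.78, SE 0.67). Its log2 fold change was 2.92 without replicate 4 and 2.95 with replicates 1 and 2 alone. For all 4 genes each 24 h library, the library labelled 24 h replicate 3 included, lay above each before library.

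Of 12 tested resident macrophage genes (14 listed) 7 were higher, 8 without replicate 3 and 8 with replicates 1 and 2 alone, with a median of 1.70 and 0 lower. The summed level of the list was 349, 299, 264, 188 and 223 FPKM before and 1610.0, 1529, 577 and 1373 FPKM at 24 h. Cd5l, a scavenger protein that macrophages secrete, had the largest rise of all genes the naming rule allowed, from 5.66, 2.27, 2.54, 1.27 and 1.24 to 277, 285, 10.9 and 73.5 FPKM (adjusted p = 0.0036, log2 fold change 5.99, SE 0.94). Replicates 1 and 2 were near each other and far above replicates 3 and 4, and with those first 2 alone the log2 fold change was 6.78. C1qb, a chain of complement C1q, went from 96.02, 82.1, 67.95, 52.9 and 66.9 to 382, 363, 153 and 398 FPKM, where replicate 3 was lowest (adjusted p = 0.0025, log2 fold change 2.18, SE 0.31). Csf1r, the receptor for the growth factor that maintains macrophages, rose from a mean of 17.6 ± 4.44 (SD, n = 5) to 57.1 ± 14.8 FPKM (SD, n = 4, log2 fold change 1.72). Cd68, a lysosomal membrane protein of macrophages, rose from 34.2 ± 17.4 to 220.1 ± 77.1 FPKM (log2 fold change 2.74).

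Clec7a, the receptor for fungal beta-glucan that is also found on activated macrophages, was among the largest rises and was close in all 4 libraries at 24 h. It stood at 12.3, 10.1, 4.37, 3.65 and 6.23 FPKM before and 157, 122, 161 and 140.2 FPKM at 24 h (adjusted p = 0.00089, log2 fold change 4.32, SE 0.35), and its fold change was 4.33 without 24 h replicate 3 and 4.29 with replicates 1 and 2 alone. Ear2, a secreted ribonuclease of eosinophils and macrophages whose family shares sequence and so leaves its value uncertain, rose from a range of 0.278 to 2.33 FPKM to 10.8 to 22.8 FPKM (log2 fold change 4.03). Atp6v0d2, a proton pump subunit of osteoclasts and macrophages, stood at 6.61, 7.73, 1.65, 0.199 and 1.26 FPKM before and 64.03, 44.6, 91.1 and 62.8 FPKM at 24 h (adjusted p = 0.008, log2 fold change 4.24, SE 0.80). Its spread before TAM was wide, and before replicates 1 and 2 were highest, as they were for Gpnmb, Clec7a and Ctss.

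Lysosomal genes were higher in 13 of 17 cases, 15 without replicate 3 and 15 with replicates 1 and 2 alone. The median was 0.91 on the log2 scale. The count ran from 9 to 15 when any 1 library was left out, and 0 were lower. Ctss, a protease of antigen-presenting cells, went from 185, 158, 90.9, 64.7 and 92.3 to 805, 615, 660.1 and 1136 FPKM (adjusted p = 0.0017, log2 fold change 2.80, SE 0.35). Ctsl went from 117, 136, 124, 204 and 170.2 to 389, 306, 381 and 366 FPKM (adjusted p = 0.0035, log2 fold change 1.27, SE 0.20), and Ctsd, counted in the lipid-laden list too, from a mean of 603 ± 62.9 to 1731 ± 448 FPKM. The groups were apart for each of these proteases. Of 11 lysosomal genes with a RefSeq promoter, 3 held the letters TCACGTG (the CLEAR element bound by Tfeb) within 250 bases before to 50 after the start, against 6.72% of tested genes. Of the 8 called higher among them 2 held it.

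Among 11 tested genes for the uptake of dying cells, 5 were higher, 6 without replicate 3 and 5 with replicates 1 and 2 alone. The count ran from 3 to 6 when any 1 library was left out, lowest without before replicates 2 and 4, and the median was 0.69. The receptor kinase gene Mertk stood at 8.44, 10.4, 9.68, 7.62 and 7.68 FPKM before and 24.4, 19.3, 20.4 and 23.2 FPKM at 24 h (adjusted p = 0.0012, log2 fold change 1.32, SE 0.15). Axl, its relative, stood at 28.4, 19.3, 17.7, 15.6 and 17.1 FPKM before and 61.7, 54.6, 119.7 and 54.9 FPKM at 24 h, with replicate 3 far above the rest (adjusted p = 0.002, log2 fold change 1.86, SE 0.24). Mfge8, which bridges phosphatidylserine on dying cells to integrins, went from 91.5 ± 5.63 to 179.7 ± 27.1 FPKM (log2 fold change 1.00).

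Targets of LXR, the nuclear receptor for oxysterols, were higher in 3 of 9 cases, 4 without replicate 3 and 4 with replicates 1 and 2 alone, with a median of 0.58. Abcg1, which exports cholesterol, stood at 4.63, 4.73, 2.69, 3.14 and 3.43 FPKM before and 28.9, 25.3, 15.6 and 30.1 FPKM at 24 h (adjusted p = 0.00096, log2 fold change 2.78, SE 0.25). Mylip, the ubiquitin ligase that removes the LDL receptor, stood at 6.80, 7.78, 5.97, 6.94 and 6.60 FPKM before and 22.2, 17.1, 21.5 and 23.2 FPKM at 24 h (adjusted p = 0.00089, log2 fold change 1.63, SE 0.13). The before libraries of Mylip lay close together, and its standard error was small beside its change. Smpdl3a, a phosphodiesterase that macrophages induce with sterol, rose from 19.1 ± 2.04 to 47.5 ± 6.86 FPKM (log2 fold change 1.33).

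Of 15 genes that take up, esterify or move cholesterol 3 were higher, with a median of 0.26. The count was 4 with 1 lower without replicate 3 and 3 with 1 lower with replicates 1 and 2 alone. Npc2, which takes cholesterol out of the lysosome, rose from 54.02 ± 5.13 to 115 ± 20.4 FPKM (adjusted p = 0.0036, log2 fold change 1.11, SE 0.17), and Stard3, a tether that carries cholesterol between membranes, from 10.05 ± 0.745 to 17.1 ± 2.67 FPKM (adjusted p = 0.0087, log2 fold change 0.78, SE 0.15). Soat1, which makes the cholesterol esters of adrenal droplets, stood at 137, 113, 84.2, 98.9 and 110.1 FPKM before and 46.1, 45.4, 116 and 31.4 FPKM at 24 h. Its replicate 3 lay within the range of the before libraries and the other 24 h libraries below it, so the log2 fold change of -0.89 was not called with all libraries (adjusted p = 0.092). It was -1.34 without replicate 3 (adjusted p = 0.0012) and -1.22 with replicates 1 and 2 alone (adjusted p = 0.0031). Scarb1, the receptor that takes up HDL cholesterol, stood at 572, 940.0, 2250.4, 548 and 595 FPKM before and 1931, 3635, 96.6 and 1906 FPKM at 24 h, with before replicate 3 above the other before libraries and inside the 24 h range (adjusted p = 0.47).

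**Figure D4:**
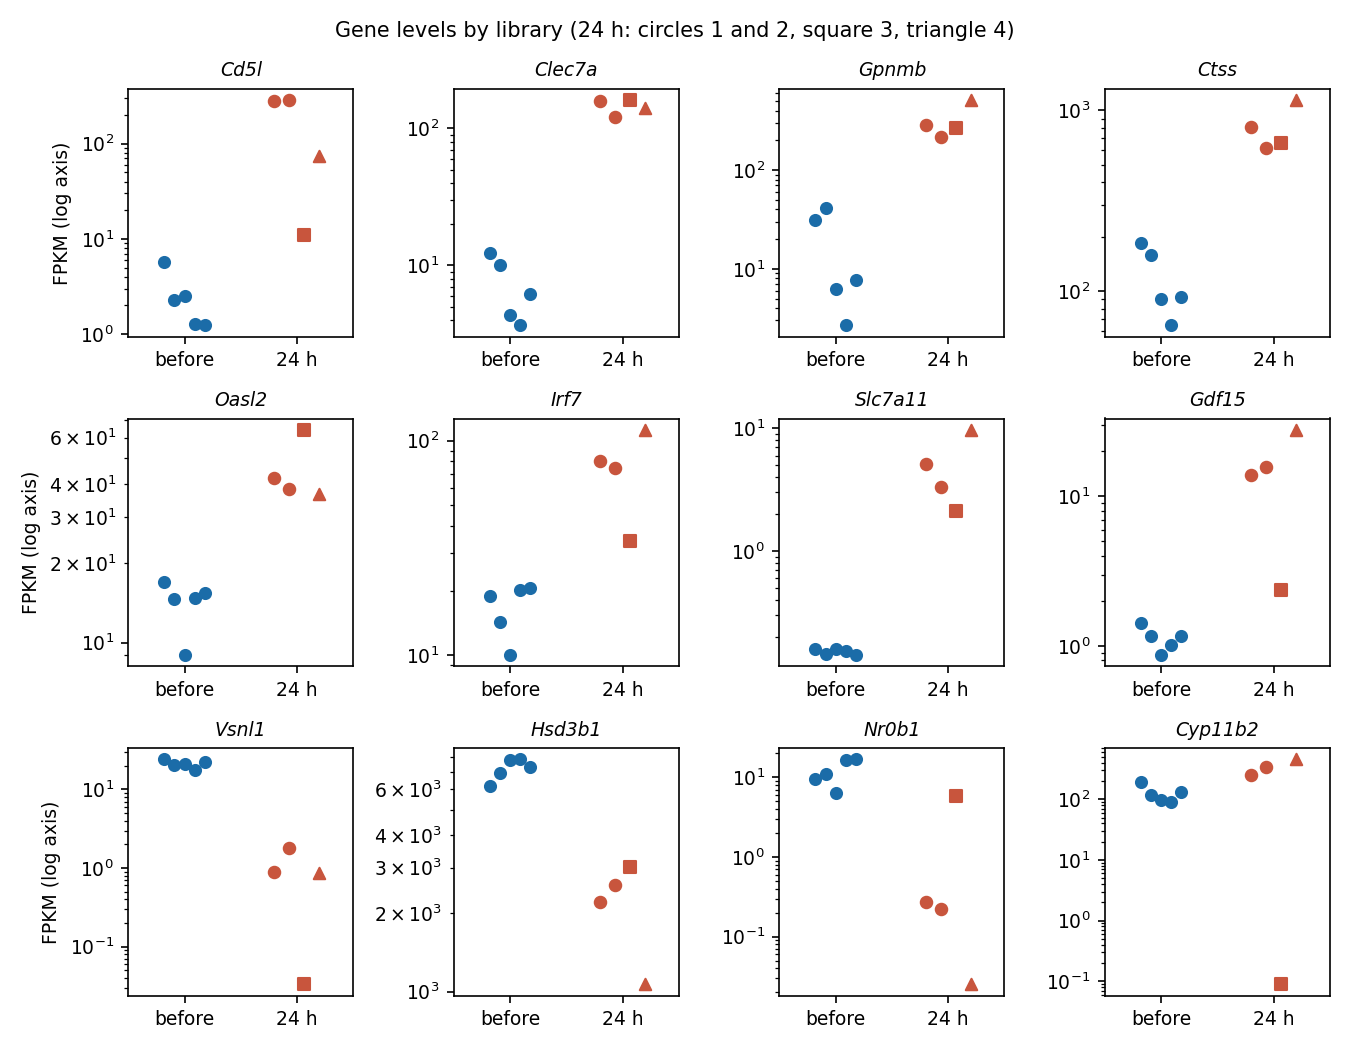
FPKM on a log axis for 12 genes in each library, with 1 point per library (before in blue, 24 h in red, where the square marks replicate 3 and the triangle replicate 4). Groups are apart for the 10 genes from Cd5l to Hsd3b1 and for Nr0b1, whose replicate 3 lies just below the before libraries, while Cyp11b2 is high in 3 of the 4 libraries at 24 h and 0.0883 FPKM in replicate 3.

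The zona glomerulosa list held 5 members lower and 1 higher among 13 tested, with a median of -1.09. Without replicate 3 the counts were 7 lower and 3 higher, and with replicates 1 and 2 alone 6 lower and 3 higher. The count of lower members was 3 without any 1 of the before libraries or 24 h replicates 1 or 4. Vsnl1, a calcium sensor that marks the zone, stood at 24.3, 20.3, 21.1, 17.7 and 22.2 FPKM before TAM and then 0.894, 1.80, 0.0329 and 0.864 FPKM at 24 h (adjusted p = 0.0043, log2 fold change -4.52, SE 0.74). Its log2 fold change was -4.09 without 24 h replicate 3 and -3.94 with replicates 1 and 2 alone, and -5.12 without 24 h replicate 2. Lef1, a factor of Wnt signalling, went from 7.54, 4.36, 3.36, 5.36 and 7.23 to 1.33, 2.24, 1.70 and 1.92 FPKM (adjusted p = 0.0059, log2 fold change -1.69, SE 0.30). Shh, a signal that cortical progenitors secrete, went from 11.5, 15.01, 11.2, 10.5 and 15.8 to 0.239, 3.18, 0.0120 and 0.593 FPKM (adjusted p = 0.039, log2 fold change -3.63, SE 1.01). That call was lost without any 1 of before replicates 1 to 5 or 24 h replicates 1 and 4 (adjusted p between 0.063 and 0.092), and the log2 fold change was -5.50 without 24 h replicate 2 and -2.87 with replicates 1 and 2 alone. Wnt4, the Wnt ligand of the zone, went from 119, 93.2, 50.1, 70.9 and 97.1 to 8.83, 23.1, 70.1 and 14.7 FPKM. Replicate 3 lay inside the range before, and Wnt4 was not called with all libraries (log2 fold change -1.60, adjusted p = 0.068). It fell by 2.39 both without replicate 3 (adjusted p = 0.0023) and with replicates 1 and 2 alone (adjusted p = 0.0089).

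Axin2, a target and brake of Wnt signalling, stood at 9.04, 11.6, 7.69, 8.92 and 11.9 FPKM before and 3.52, 3.25, 9.26 and 2.62 FPKM at 24 h (log2 fold change -1.11, adjusted p = 0.047). It was called with all libraries and lost without any 1 of before replicates 1 to 5 or 24 h replicates 1, 2 and 4 (adjusted p between 0.065 and 0.11) or without a scaling factor, and it fell by 1.58 without replicate 3 (adjusted p = 0.00058). Dab2, another marker of the zone, was not called (log2 fold change -0.56, adjusted p = 0.31), with replicate 2 at 222 FPKM against 194 to 249 FPKM before. Members thus went different ways, and 1 rose in all 3 fits. Afap1l2, an adaptor protein of the zone, stood at 8.22, 6.67, 8.07, 3.76 and 4.23 FPKM before and 18.00, 26.2, 20.4 and 11.5 FPKM at 24 h (adjusted p = 0.0069, log2 fold change 1.62, SE 0.29). Cyp11b2, aldosterone synthase, stood at 193, 116, 97.98, 91.97 and 131 FPKM before TAM and then 249, 336, 0.0883 and 458 FPKM at 24 h. With replicate 3 it was not called (adjusted p = 0.57), and its log2 fold change was 1.55 without replicate 3 (adjusted p = 0.0044) and 1.25 with replicates 1 and 2 alone (adjusted p = 0.013). It shares most of its sequence with Cyp11b1, which leaves the split of reads between them uncertain.

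Of 12 genes of steroid synthesis 2 were lower and 0 higher, with a median of -0.39. The count of lower members was 3 without replicate 3, 2 with replicates 1 and 2 alone, and 1 without any 1 of before replicates 2 to 5 or 24 h replicates 1 and 2. Hsd3b1 turns pregnenolone into progesterone, and its value is uncertain because near-identical genes share its reads. It went from 6187, 6918, 7767, 7815 and 7311 to 2216, 2574, 3024 and 1067 FPKM (adjusted p = 0.0072, log2 fold change -1.71, SE 0.32). Its level fell by 1.83 without replicate 3 and by 1.56 with replicates 1 and 2 alone. Cyp11a1, which cuts the cholesterol side chain, stood at 4148, 2562, 3021, 2280.1 and 2452 FPKM before and 2749, 4656, 983 and 2593 FPKM at 24 h (log2 fold change -0.04, adjusted p = 0.96). The groups overlapped. Cyp21a1, the 21-hydroxylase, stood at 2753, 4764, 2.42 and 1391 FPKM at 24 h and below every before library, but was called in none of the 3 fits (adjusted p = 0.45, 0.065 and 0.12). Cyp11b1, the corticosterone-making enzyme, stood at 4066, 2817, 3231, 1911 and 2522 FPKM before and 1079, 1989.7, 1.07 and 969 FPKM at 24 h, and was called only without replicate 3 (log2 fold change -1.05, adjusted p = 0.038; -0.89 and 0.1 with replicates 1 and 2 alone). Akr1b7, an aldose reductase that rises with ACTH, stood at 1593, 1345, 6795, 553 and 859.9 FPKM before and 5443, 9438, 6.75 and 12988 FPKM at 24 h, with before replicate 3 among the high libraries (adjusted p = 0.44).

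Cortical identity genes were mixed, with 2 of 11 lower and 1 higher and a median of -0.14. Without replicate 3 the counts were 4 and 1, with replicates 1 and 2 alone 2 and 1, and the count of lower members ran from 0 to 4 when any 1 library was left out. Nr5a1, the master factor of steroid-making cells, stood at 253, 315, 269, 276 and 276 FPKM before and 132, 218, 104 and 93.6 FPKM at 24 h (adjusted p = 0.029, log2 fold change -1.01, SE 0.26). With replicates 1 and 2 alone the adjusted p was 0.059, and the call was also lost without any 1 of before replicates 2 to 5 or 24 h replicates 1 and 4 (adjusted p between 0.055 and 0.071). Nr0b1, a repressor of Nr5a1 activity, stood at 9.53, 11.01, 6.46, 16.7 and 16.9 FPKM before and 0.273, 0.221, 5.87 and 0.0252 FPKM at 24 h. Replicates 1, 2 and 4 lay far below the before libraries and replicate 3 just below them, and it was not called with all libraries (adjusted p = 0.1). Nr0b1 fell by 6.01 without replicate 3 (adjusted p = 0.00041) and by 5.57 with replicates 1 and 2 alone (adjusted p = 0.00069). Nr0b2, a related repressor, went from 8.45, 10.9, 24.98, 14.4 and 8.83 to 4.80, 5.03, 2.05 and 2.83 FPKM (adjusted p = 0.02, log2 fold change -1.88, SE 0.44). The adjusted p was 0.063 for replicates 1 and 2 alone, and 0.05 and 0.053 without before replicate 4 and 24 h replicate 4. Inha, the inhibin alpha subunit, rose from 11.7, 17.6, 20.7, 15.5 and 12.5 to 24.3, 54.5, 246 and 52.3 FPKM (adjusted p = 0.015, log2 fold change 2.53, SE 0.56), and by log2 1.56 without 24 h replicate 3 and 1.36 with replicates 1 and 2 alone. Mc2r was below every before library at 24 h (109, 187, 0.132 and 137 FPKM) but was not called in the 3 fits (adjusted p = 0.56, 0.063 and 0.12).

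Of the 4 X-zone markers 1 was lower with all libraries and without replicate 3, and 2 with replicates 1 and 2 alone (median -1.22). Thrb, the thyroid hormone receptor beta, went from 12.03, 7.39, 6.50, 17.7 and 13.8 to 4.97, 2.96, 4.57 and 1.58 FPKM (adjusted p = 0.016, log2 fold change -1.71, SE 0.38). Akr1c18, a progesterone-degrading enzyme that marks the zone, stood at 0.0695, 0.416, 319, 1779 and 899.7 FPKM before and 907, 514, 10.1 and 0.0771 FPKM at 24 h. The spread within each group was wide, and it was not called (adjusted p = 0.86). Of 12 genes of the ACTH and cyclic AMP pathway 1 was higher and 2 lower in each of the 3 fits (medians -0.22, -0.04 and 0.06). The count of lower members was 1 without any 1 of before replicates 2, 4 and 5 or 24 h replicates 1, 2 and 4. Pde4b and Pde8b both break down cyclic AMP and went opposite ways. Pde4b went from 2.21, 2.21, 1.63, 1.06 and 1.16 to 5.64, 4.64, 2.74 and 11.2 FPKM (adjusted p = 0.016, log2 fold change 1.94, SE 0.43). Pde8b, the main form of steroid-making cells, went from 20.9, 16.01, 29.2, 21.2 and 18.2 to 8.50, 12.5, 5.71 and 4.57 FPKM (adjusted p = 0.016, log2 fold change -1.43, SE 0.32).

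Cholesterol synthesis genes were lower in 4 of 23 cases and higher in 0, with a median of -0.88. The count was 8 without replicate 3, 4 with replicates 1 and 2 alone, 8 without before replicate 1, and 1 without before replicate 4, before replicate 5 or 24 h replicate 1. Tm7sf2, a sterol reductase, went from 6.77, 4.72, 7.57, 11.01 and 8.09 to 3.08, 4.03, 3.44 and 1.72 FPKM (adjusted p = 0.022, log2 fold change -1.32, SE 0.32). Its call was lost without any 1 of before replicates 4 and 5 or 24 h replicate 1 (adjusted p between 0.052 and 0.062). Of 11 genes of fatty acid synthesis 1 was lower, Elovl5, a fatty acid elongase (log2 fold change -0.98, adjusted p = 0.025, and 0.079 with replicates 1 and 2 alone). Its call was lost without any 1 of before replicate 1 or 24 h replicates 1 and 4 (adjusted p between 0.052 and 0.062), and the list's counts were 1 without replicate 3 and 0 with replicates 1 and 2 alone. With all libraries 9.09% of the list was called in either direction, against 15.0% of all genes tested.

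The largest falls named by the rule were, apart from Vsnl1, of genes in none of the lists. Akr1d1, a steroid 5-beta-reductase, stood at 1026, 462, 665, 1232 and 1381 FPKM before and 50.2, 20.3, 0.189 and 0.117 FPKM at 24 h. All 24 h libraries were below all before libraries, and replicates 3 and 4 lay far below replicates 1 and 2 (adjusted p = 0.041, log2 fold change -5.73, SE 1.62). The call was lost without any 1 of before replicates 1 to 5 or 24 h replicate 2 (adjusted p between 0.064 and 0.089) and made with replicates 1 and 2 alone (log2 fold change -4.73, adjusted p = 0.0021). Without 24 h replicate 1 the log2 fold change was -7.08. Lrrc55, a subunit that modulates potassium channels, went from 4.73, 6.69, 7.51, 7.68 and 9.89 to 0.363, 0.219, 0.891 and 0.483 FPKM (adjusted p = 0.0011, log2 fold change -3.91, SE 0.41). Nek5, a kinase, went from 5.59, 8.10, 3.54, 7.58 and 8.61 to 0.407, 0.544, 0.332 and 0.677 FPKM (adjusted p = 0.0011, log2 fold change -3.74, SE 0.37). For both each 24 h library lay below each before library, the library labelled 24 h replicate 3 included, and with replicates 1 and 2 alone the log2 fold change of Lrrc55 was -4.62. Sphkap, an anchor for protein kinase A, ranged from 2.69 to 5.81 FPKM before and from 0.0343 to 0.437 FPKM at 24 h (log2 fold change -3.91). Rdh1, a retinol dehydrogenase, ranged from 2.09 to 4.38 and from 0.0349 to 0.536 FPKM (-4.10, and -5.46 without 24 h replicate 3 and -5.22 with replicates 1 and 2 alone). Entpd3, which splits extracellular ATP, ranged from 2.21 to 4.51 and from 0 to 0.447 FPKM (-4.19, -5.0 without 24 h replicate 1 and -3.43 with replicates 1 and 2 alone). Elfn1, a synaptic adhesion protein, ranged from 2.31 to 18.1 and from 0.0707 to 0.610 FPKM (-4.29). Xrra1 (-4.38, and -3.73 with replicates 1 and 2 alone) and the muscle filament gene Mybpc1 (-5.22, 0.0163 to 0.0807 FPKM over the 24 h libraries, and -5.85 without 24 h replicate 4) completed the 10.

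Interferon-induced genes were higher in 16 of 26 cases and lower in 0, with a median log2 fold change of 1.40. The count was 20 without replicate 3, 14 with 1 lower (Dhx58, an RNA sensor homologue) with replicates 1 and 2 alone, and 10 without before replicate 2 or 4. Several members held an interferon-stimulated response element in the promoter, searched as GAAA, any 2 bases and GAAA on either strand in RefSeq windows from 250 bases before to 50 after each start (GRCm38.p6). Of 19 matched members 13 held it, of 12 called higher 8 did, and so did 3.92% of the 10579 tested genes with a window and 3.44% of all 32851 windows. The 150 bases before the start of Isg15 (chr4:156200819-156200968, minus strand), Oas1a (chr5:120907526-120907675, minus strand) and Gbp2 (chr3:142620513-142620662, plus strand) are given 5′ to 3′ on the gene's strand, because these called members carry the element close to the start, with the matching letters in capitals.
Isg15: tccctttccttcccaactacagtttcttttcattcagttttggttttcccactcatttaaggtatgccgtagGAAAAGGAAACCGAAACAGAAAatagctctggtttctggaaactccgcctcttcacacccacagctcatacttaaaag
Oas1a: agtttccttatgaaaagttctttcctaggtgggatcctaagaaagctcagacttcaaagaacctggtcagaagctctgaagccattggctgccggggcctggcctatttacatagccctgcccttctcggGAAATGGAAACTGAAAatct
Gbp2: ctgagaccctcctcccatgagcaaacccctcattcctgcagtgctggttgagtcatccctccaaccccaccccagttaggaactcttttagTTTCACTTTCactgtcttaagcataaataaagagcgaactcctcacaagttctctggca
In Isg15 3 overlapping matches began 78, 72 and 66 bases before the start, in Oas1a 2 began 20 and 14 bases before it, and in Gbp2 1 began 59 bases before it. A match is a description of the letters and not a shown binding site.

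Isg15, a ubiquitin-like protein, stood at 19.2, 10.5, 5.97, 10.4 and 9.73 FPKM before and 34.4, 40.6, 23.1 and 81.4 FPKM at 24 h (adjusted p = 0.012, log2 fold change 2.06, SE 0.42). Oas1a, which senses double-stranded RNA and has near-identical relatives that leave its value uncertain, stood at 7.40, 5.01, 3.47, 6.44 and 5.61 FPKM before and 21.2, 21.5, 9.11 and 24.1 FPKM at 24 h (adjusted p = 0.0062, log2 fold change 1.80, SE 0.32). Gbp2, a guanylate-binding protein of a family that shares reads, stood at 24.3, 17.9, 10.5, 19.5 and 24.6 FPKM before and 35.1, 29.5, 54.6 and 44.4 FPKM at 24 h (adjusted p = 0.017, log2 fold change 1.08, SE 0.24), and was not called with replicates 1 and 2 alone (log2 fold change 0.77, adjusted p = 0.074). All 3 genes were higher in every 24 h library than in any before library, with before replicate 3 the lowest library for each. The strongest members by p were Oasl2, Irf7 and Bst2. The windows of Oasl2 and Irf7 held 0 matches of the response element, and that of Bst2 held 2. Oasl2, a relative of the same enzyme family, went from 16.98, 14.7, 8.97, 14.8 and 15.4 to 42.1, 38.1, 64.3 and 36.8 FPKM (adjusted p = 0.0013, log2 fold change 1.68, SE 0.19). Irf7, the factor that drives type I interferon genes, went from 18.98, 14.3, 10.1, 20.2 and 20.7 to 80.7, 74.6, 33.95 and 112 FPKM (adjusted p = 0.0038, log2 fold change 2.20, SE 0.35). Bst2, which tethers virus particles to the cell surface, went from 85.96, 75.9, 45.9, 62.3 and 73.9 to 127, 120.3, 171 and 165 FPKM (adjusted p = 0.0042, log2 fold change 1.10, SE 0.18). Macrophage markers moved with this list (the resident macrophage genes summed to 188 to 349 FPKM before and 577 to 1610.0 FPKM at 24 h), and their part in it was not tested.

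Cytokine and NF-kB genes were higher in 9 of 15 tested cases (18 listed) and lower in 0, with a median of 2.06. The count was 12 without replicate 3 and 10 with replicates 1 and 2 alone. It was 4 or 5 without any 1 of before replicates 2, 3, 4 and 5 or 24 h replicates 1, 2 and 4. Ccl12, a chemokine that draws monocytes, went from 1.14, 0.607, 0.784, 0.186 and 0.361 to 4.56, 5.18, 3.15 and 8.26 FPKM (adjusted p = 0.0052, log2 fold change 3.10, SE 0.53). Il1rn, which blocks the interleukin-1 receptor, went from 1.56, 1.32, 0.552, 0.161 and 0.493 to 5.92, 3.79, 8.48 and 14.4 FPKM (adjusted p = 0.0076, log2 fold change 3.34, SE 0.62), with a log2 fold change of 2.6 with replicates 1 and 2 alone. Vcam1, the adhesion molecule on which leukocytes hold, went from 17.6, 15.1, 12.5, 10.1 and 11.9 to 66.2, 67.9, 19.2 and 34.2 FPKM (adjusted p = 0.0096, log2 fold change 1.83, SE 0.36). Il1a, an alarm cytokine released by dying cells, was among the 10 largest rises, from 0.619, 0.300, 0.142, 0.0505 and 0.294 to 5.26, 4.11, 3.47 and 4.90 FPKM (adjusted p = 0.0025, log2 fold change 3.98, SE 0.56). The cytokine and the antagonist of its receptor thus rose together. Of 13 acute phase and STAT3 genes 1 was higher, Osmr, the oncostatin M receptor (log2 fold change 1.26, adjusted p = 0.02, or 0.056 without before replicate 5), 3 without replicate 3 and 2 with replicates 1 and 2 alone. With all libraries this was 7.69% of the list, against 9.19% of all genes tested called higher.

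Markers of inflammatory monocytes were higher in 4 of 10 cases, with a median of 1.93. The count was 7 without replicate 3, 3 with replicates 1 and 2 alone, and 2 without any 1 of before replicates 2 to 5 or 24 h replicate 4. Fcgr1, an activating Fc receptor, went from 3.27, 1.63, 1.93, 1.56 and 1.96 to 18.05, 16.2, 10.3 and 23.5 FPKM (adjusted p = 0.0011, log2 fold change 3.07, SE 0.32). Plac8 ranged from 5.58 to 26.8 FPKM before and from 30.8 to 108 at 24 h (adjusted p = 0.017, log2 fold change 2.25, SE 0.51, and log2 fold change 1.48, adjusted p = 0.066 with replicates 1 and 2 alone). F10, coagulation factor X, rested on replicate 4 (0.531, 0.839, 1.60 and 8.25 FPKM at 24 h) and its log2 fold change of 2.91 became 0.85 with replicates 1 and 2 alone (adjusted p = 0.2) and 1.30 without replicate 4. Its call was also lost without any 1 of before replicates 1 to 5 or 24 h replicate 4 (adjusted p between 0.068 and 0.1).

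Of 11 tested dendritic cell and MHC class II genes 5 were higher (median 1.31). The count was 6 without replicate 3 and 7 with replicates 1 and 2 alone. It ran from 1 to 7 when any 1 library was left out, lowest without before replicates 4 and 5 and 24 h replicate 1. Itgax, an integrin of dendritic cells and macrophages, went from 5.66, 5.40, 1.19, 2.41 and 3.44 to 31.8, 21.95, 16.1 and 19.8 FPKM (adjusted p = 0.0035, log2 fold change 2.66, SE 0.41). H2-Aa (log2 fold change 1.43) and H2-DMb1 (1.54), which present peptides and load them, belong to families that share reads and are uncertain, and their calls were lost without any 1 of before replicates 2, 4 and 5 or 24 h replicates 1 and 2 (adjusted p between 0.069 and 0.087) and without any 1 of before replicates 4 and 5 or 24 h replicate 1 (adjusted p between 0.051 and 0.055), respectively. Of 11 T and NK cell genes 1 was higher, Cd4 (log2 fold change 3.27, adjusted p = 0.0012), which macrophages express too. That is 9.09% of the list, against 9.19% of all genes tested called higher. Of 7 B cell genes 1 was higher, Cd22 (3.10, adjusted p = 0.0025). The summed B cell levels overlapped, at 2.91 to 54.3 FPKM before and 8.45 to 34.5 FPKM at 24 h. Of 6 neutrophil genes (12 listed) 2 were higher, among them the receptor gene Csf3r (1.64, adjusted p = 0.0085), and 1 when any 1 of before replicates 1, 3, 4 and 5 or 24 h replicates 1, 2 and 4 was left out. Without replicate 3 the T and NK cell, B cell and neutrophil lists held 2, 1 and 2 higher, and with replicates 1 and 2 alone 3, 1 and 1. Their medians with all libraries were 0.97, 0.42 and 0.94.

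Targets of ATF4 were higher in 9 of 22 tested cases (24 listed), with a median of 1.12. Without replicate 3 the count was 19, with 1 lower (Cebpb), and with replicates 1 and 2 alone 17. The list's mean in 24 h replicates 1 to 4 was 1.49, 1.71, -0.02 and 1.74 log2 relative to before, and replicate 3 lay at the level of the before libraries. An ATF4 composite site was searched as the letters TGATGNAAN on either strand in the same windows. It was found in 7 of 20 matched members and 4 of 9 called higher, against 2.68% of tested genes and 3.95% of all windows. The 150 bases before the start of Slc7a11 (chr3:50443614-50443763, minus strand), Gars (chr6:55037851-55038000, plus strand) and Nupr1 (chr7:126625471-126625620, minus strand) are given as above, because these called members carry the letters in that span, with the match in capitals.
Slc7a11: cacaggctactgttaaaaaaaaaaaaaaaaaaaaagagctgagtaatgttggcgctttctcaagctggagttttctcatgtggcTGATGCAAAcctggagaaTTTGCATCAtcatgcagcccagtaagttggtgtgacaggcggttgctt
Gars: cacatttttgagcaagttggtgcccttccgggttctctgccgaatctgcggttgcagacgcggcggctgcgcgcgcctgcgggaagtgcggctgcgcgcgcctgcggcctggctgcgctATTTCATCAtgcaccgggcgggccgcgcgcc
Nupr1: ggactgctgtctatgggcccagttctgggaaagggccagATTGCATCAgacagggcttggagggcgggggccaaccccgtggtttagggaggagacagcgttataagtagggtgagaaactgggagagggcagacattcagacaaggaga
In Slc7a11 the 2 matches began 66 and 48 bases before the start, in Gars 1 began 31 bases and in Nupr1 1 began 111 bases before it.

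Slc7a11, which imports cystine for glutathione, stood at 0.159, 0.145, 0.159, 0.151 and 0.142 FPKM before TAM and then 5.15, 3.31, 2.11 and 9.75 FPKM at 24 h (adjusted p = 0.00096, log2 fold change 5.11, SE 0.46). The 5 libraries before TAM were nearly equal and low, and each 24 h library lay far above them. Gdf15, a stress hormone that acts on the brainstem, went from 1.43, 1.16, 0.872, 1.01 and 1.16 to 13.9, 15.7, 2.38 and 27.9 FPKM (adjusted p = 0.0038, log2 fold change 3.79, SE 0.60), with replicate 3 lowest at 24 h. Nupr1, a stress-induced chromatin protein, went from 10.5, 11.2, 14.03, 9.31 and 10.7 to 50.3, 32.2, 76.9 and 53.8 FPKM (adjusted p = 0.0011, log2 fold change 2.24, SE 0.24), with replicate 3 highest. Gars, which charges tRNA with glycine, went from 32.5, 31.5, 43.9, 33.3 and 30.5 to 71.1, 76.8, 50.05 and 95.9 FPKM (adjusted p = 0.011, log2 fold change 1.12, SE 0.23). Its groups overlapped in scaled counts although not in FPKM. Trib3, a pseudokinase that restrains ATF4, went from 1.47, 1.09, 1.48, 2.33 and 1.13 to 20.3, 30.1, 1.41 and 28.8 FPKM (adjusted p = 0.0078, log2 fold change 3.79, SE 0.71). Replicate 3 sat within the before range and the other 24 h libraries far above it. Ddit3, the death-promoting factor CHOP, went from 29.1, 24.1, 19.6, 24.9 and 21.9 to 68.3, 91.5, 29.4 and 51.05 FPKM (adjusted p = 0.015, log2 fold change 1.36, SE 0.30), with the same library near the range before. Chac1, which degrades glutathione, went from 2.49, 3.29, 4.64, 4.38 and 3.20 to 24.97, 46.5, 0.366 and 13.2 FPKM. It was not called with all libraries (adjusted p = 0.077) and rose by log2 3.02 without replicate 3 (adjusted p = 0.00081). Atf3, an immediate early gene that this pathway also induces, went from 4.31, 3.17, 1.49, 1.29 and 1.57 to 35.7, 37.9, 13.6 and 27.3 FPKM (adjusted p = 0.0017, log2 fold change 3.63, SE 0.45), and its groups did not overlap.

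Endoplasmic reticulum chaperone and quality control genes were higher in 4 of 18 cases with all libraries and in 11 both without replicate 3 and with replicates 1 and 2 alone, with medians of 0.47, 0.63 and 0.51. The count was 1 or 2 without any 1 of the other 8 libraries. Hspa5, the chaperone BiP, stood at 296, 326, 413, 325 and 309 FPKM before and 599, 678, 334 and 713 FPKM at 24 h. It was not called with all libraries (adjusted p = 0.068) and was higher by log2 1.06 without replicate 3 (adjusted p = 0.0024) and 0.96 with replicates 1 and 2 alone (adjusted p = 0.008). Before replicate 3 was the highest of its group for Hspa5. Derl3, part of the channel that moves misfolded proteins out for degradation, went from 1.31, 1.19, 0.812, 1.12 and 1.30 to 4.67, 4.42, 20.2 and 3.96 FPKM, with replicate 3 highest (adjusted p = 0.0055, log2 fold change 2.81, SE 0.49). Its log2 fold change was 1.99 without 24 h replicate 3 and 2.02 with replicates 1 and 2 alone. Pdia4, a disulfide isomerase, changed by log2 0.42 (adjusted p = 0.043), a call lost without any 1 of before replicates 1 to 5 or 24 h replicates 1 and 2 (adjusted p between 0.076 and 0.11) and without a scaling factor (adjusted p = 0.1).

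Targets of NRF2, the factor of the oxidant response, were higher in 5 of 15 cases (median 0.80), 7 without replicate 3, 5 with replicates 1 and 2 alone and 2 without any 1 of before replicates 2, 4 and 5. Nqo1, a quinone reductase, went from 3.04, 2.33, 2.05, 1.70 and 1.87 to 5.67, 3.73, 6.88 and 8.62 FPKM (adjusted p = 0.0095, log2 fold change 1.51, SE 0.30). Fth1, the iron-storing ferritin heavy chain, went from 1629, 1461, 1188, 1212 and 1338 to 2295, 2378, 2083 and 4218 FPKM, with replicate 4 far above the others (adjusted p = 0.029, log2 fold change 1.04, SE 0.27), and the call was lost without any 1 of before replicates 2 to 5 (adjusted p between 0.063 and 0.081). The antioxidant response element, searched as TGACNNNGC on either strand, was in 6 of 12 matched members and in 0 of 4 called higher, against 17% of tested genes. No match says only that these letters are not in the window.

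Cell death genes were higher in 5 of 16 cases (median 0.80), 12 without replicate 3 and 10 with replicates 1 and 2 alone, and 3 without any 1 of before replicates 2, 4 and 5. Casp1, the inflammasome protease, went from 4.63, 3.55, 2.91, 2.40 and 3.42 to 11.4, 9.64, 11.4 and 15.8 FPKM (adjusted p = 0.002, log2 fold change 1.85, SE 0.24). Gsdmd, which it cuts into a pore of the cell membrane, went from 8.30, 8.06, 6.50, 4.93 and 5.78 to 11.4, 12.2, 15.5 and 11.3 FPKM (adjusted p = 0.01, log2 fold change 0.91, SE 0.18). Pmaip1, the BH3 protein Noxa of mitochondrial cell death, went from 0.997, 0.628, 0.501, 0.469 and 0.620 to 3.27, 2.67, 2.11 and 6.00 FPKM (adjusted p = 0.0038, log2 fold change 2.49, SE 0.39). For each of the 3 genes all 24 h libraries lay above all before libraries. Of 13 p53 targets 2 were higher (median 0.37), 7 without replicate 3 and 6 with replicates 1 and 2 alone, and 0 or 1 without any 1 of the other libraries.

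Capsule and fibroblast genes were higher in 5 of 12 cases (median 1.18). Without replicate 3 and with replicates 1 and 2 alone 5 were higher and 1 lower, Gli1, a target of hedgehog signals such as Shh. Pdgfrb, a receptor of pericytes and fibroblasts, went from 16.96, 17.3, 14.98, 15.1 and 15.9 to 44.5, 37.7, 26.9 and 38.2 FPKM (adjusted p = 0.0023, log2 fold change 1.22, SE 0.17). The collagen gene Col1a2 went from 43.9, 44.4, 67.4, 33.8 and 31.3 to 139.8, 125, 118 and 132 FPKM (adjusted p = 0.0039, log2 fold change 1.54, SE 0.24). Lum, a proteoglycan of collagen fibrils, went from 24.9, 39.02, 36.8, 10.1 and 11.98 to 123, 69.1, 159 and 77.2 FPKM (adjusted p = 0.011, log2 fold change 2.11, SE 0.43). These groups did not overlap. Of 8 smooth muscle genes 4 were higher in each of the 3 fits (median 1.52), though 2 without any 1 of before replicates 1, 2, 4 and 5. Acta2, smooth muscle actin, went from 12.05, 11.96, 11.6, 8.07 and 8.41 to 18.3, 35.98, 108 and 60.1 FPKM, highest in replicate 3 (adjusted p = 0.0054, log2 fold change 2.39, SE 0.41). Its log2 fold change was 1.96 without 24 h replicate 3 and 1.41 with replicates 1 and 2 alone. Notch3, a receptor of vessel-wall cells, went from 3.28 ± 0.488 to 7.12 ± 2.05 FPKM (log2 fold change 1.14). Tagln, an actin-binding protein, had a log2 fold change of 1.29 (adjusted p = 0.039, and 0.081 with replicates 1 and 2 alone), lost without any 1 of before replicates 1, 2, 4 and 5 or 24 h replicates 2 and 4 (adjusted p between 0.057 and 0.098).

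Matrix and wound response genes were higher in 6 of 15 cases (median 1.27), 7 without replicate 3 and 8 with replicates 1 and 2 alone, and 3 without any 1 of before replicates 2, 4 and 5. Tgfbi, a matrix protein induced by TGF-beta, went from 40.95, 22.9, 35.9, 27.9 and 30.2 to 97.03, 89.4, 91.6 and 245 FPKM, with replicate 4 highest (adjusted p = 0.0054, log2 fold change 2.08, SE 0.36), and Tgfb1 itself changed from 12.9, 15.3, 15.9, 12.3 and 12.9 to 31.1, 36.2, 20.4 and 51.01 FPKM (adjusted p = 0.0091, log2 fold change 1.35, SE 0.26). Of 16 cytoskeletal, SRF and YAP target genes 5 were higher and 2 lower (median 0.88), 8 and 2 without replicate 3 and 4 and 2 with replicates 1 and 2 alone. The higher count was 1 to 3 without any 1 of before replicates 2, 4 and 5 or 24 h replicates 2 and 4. Flna, an actin crosslinker, was among them (log2 fold change 0.96, adjusted p = 0.017, and 0.052 without before replicate 4). Of 12 endothelial genes edgeR called 0 with all libraries (5 at an unadjusted p under 0.05, 3 higher by DESeq2, median 0.52), while 7 were higher without replicate 3 and 7 with replicates 1 and 2 alone. Esam, an adhesion protein of endothelial junctions, stood at 26.4, 22.5, 24.2, 23.4 and 22.8 FPKM before and 33.1, 35.7, 28.2 and 54.3 FPKM at 24 h, with adjusted p = 0.052 with all libraries and 0.0082 without replicate 3.

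Of 17 clock genes 4 were lower and 0 higher (median -0.54), and 5 were lower and 1 higher without replicate 3. There were 4 lower with replicates 1 and 2 alone, 7 lower without before replicate 3, and 1 or 2 without any 1 of the other before libraries or 24 h replicates 1 and 2. None of the sources used here gives the hour of sampling. Before replicate 3 stood apart, with Arntl, the activator of the clock, at 2.10, 2.24, 31.5, 2.16 and 2.05 FPKM before and 11.3, 14.9, 6.91 and 16.2 FPKM at 24 h, and Dbp, an output gene in opposite phase, at 173, 106, 9.11, 123 and 138 and 20.3, 18.6, 31.4 and 9.37 FPKM. The other before libraries thus had low Arntl and high Dbp, and those at 24 h lay between them and before replicate 3 in Arntl. Without before replicate 3 Arntl was higher at 24 h (log2 fold change 2.58, adjusted p = 0.0037), against an adjusted p of 0.71 with all libraries, and the log2 fold change of Dbp was -2.76 (adjusted p = 0.0036) against -2.46 (adjusted p = 0.035). The call of Dbp was lost with replicates 1 and 2 alone (adjusted p = 0.088), and also on leaving out any 1 of before replicates 1, 2, 4 and 5 or 24 h replicates 1, 2 and 4 (adjusted p between 0.066 and 0.089). Per2, a repressor of the clock, went from 17.5, 39.4, 20.6, 25.1 and 24.6 to 8.69, 10.6, 3.23 and 7.55 FPKM (adjusted p = 0.013, log2 fold change -1.72, SE 0.36). Cry2, its partner, changed by -0.54 (adjusted p = 0.03), a call lost without any 1 of before replicates 1, 2 and 4 or 24 h replicates 1 and 2 (adjusted p between 0.06 and 0.078).

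Of 13 glucocorticoid targets 2 were lower and 1 higher, or 23.1% called in all, against 15.0% of all genes tested. The median was -0.09 with all libraries, 0.13 without replicate 3 and -0.27 with replicates 1 and 2 alone. The counts were 4 higher and 2 lower without replicate 3 and 2 and 2 with replicates 1 and 2 alone, with 0 or 1 lower without any 1 of before replicates 1, 2, 4 and 5 or 24 h replicates 1 and 2. Tsc22d3, the glucocorticoid-induced leucine zipper, went from 39.9, 68.2, 52.7, 53.9 and 53.9 to 34.9, 36.5, 30.1 and 23.9 FPKM (adjusted p = 0.02, log2 fold change -0.78, SE 0.18). The adjusted p was 0.067 for replicates 1 and 2 alone, and the call was lost without any 1 of before replicates 2, 4 and 5 or 24 h replicate 4 (adjusted p between 0.05 and 0.052). Nr3c1, the glucocorticoid receptor, which is repressed by its own ligand, changed by 0.73 (adjusted p = 0.035, and 0.065 with replicates 1 and 2 alone). It lost its call without any 1 of before replicates 1 to 3 or 24 h replicates 1 and 4 (adjusted p between 0.061 and 0.089) and without a scaling factor (adjusted p = 0.054). Of 17 immediate early genes 2 were higher (median 0.19), among them Atf3. That is 11.8% of the list, near the 9.19% of all genes tested called higher. There were 3 higher and 2 lower without replicate 3, 2 and 2 with replicates 1 and 2 alone, and 1 higher without any 1 of before replicates 1, 2, 4 and 5 or 24 h replicates 2 and 4.

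TAM acts on estrogen receptors, so their responsive genes were read as well. Of 9 tested 2 were higher and 1 lower in each of the 3 fits. The median was 0.38 with all libraries, -0.32 without replicate 3 and 0.14 with replicates 1 and 2 alone. Igf1, a growth factor, went from 6.75, 4.02, 3.93, 3.94 and 8.40 to 23.02, 15.3, 21.2 and 23.8 FPKM (adjusted p = 0.0022, log2 fold change 1.90, SE 0.26), and the creatine kinase gene Ckb from 24.1, 23.9, 20.5, 19.4 and 23.04 to 58.95, 83.7, 32.7 and 115 FPKM (adjusted p = 0.0076, log2 fold change 1.75, SE 0.33). Ccnd1, the cyclin that starts the cell cycle, went from 47.5, 47.7, 43.7, 47.7 and 50.5 to 18.1, 25.4, 4.43 and 10.3 FPKM (adjusted p = 0.028, log2 fold change -1.67, SE 0.43). That fall was not called without any 1 of before replicates 2 to 5 or 24 h replicates 1 and 4 (adjusted p between 0.051 and 0.076). Of 20 genes of the cell cycle 4 were higher and 1 lower (median 0.96). The counts were 2 and 1 without replicate 3, 1 and 1 with replicates 1 and 2 alone, 10 higher without before replicate 2, and 0 or 1 higher without any 1 of the other before libraries or 24 h replicate 4. The replication genes Pcna (log2 fold change 0.61, adjusted p = 0.017) and Mcm2 (-0.77, adjusted p = 0.024) went opposite ways, and their calls were lost without any 1 of before replicates 4 and 5 (adjusted p between 0.051 and 0.055) and without any 1 of before replicates 2 and 4 or 24 h replicates 1 and 2 (adjusted p between 0.051 and 0.06), respectively. Of 15 hypoxia and glycolysis genes 1 was higher and 2 lower (median 0.09). In all 20% of this list was called, against 15.0% of all genes tested. The counts were 4 and 2 without replicate 3, 5 and 1 with replicates 1 and 2 alone, and 1 lower without any 1 of before replicates 2 to 5 or 24 h replicate 4. Bnip3, a mitophagy receptor, fell by 1.24 (adjusted p = 0.0072).

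Other lists had few or no calls, with counts given as all libraries, then without replicate 3, then replicates 1 and 2 alone. Mitochondrial respiration (21 genes) had 0, 1 and 2 higher, and its lowest-p member Sdha had an adjusted p of 0.086. Autophagy (12 genes) had 0, 2 and 2 higher and cytosolic heat shock (12 genes) 0, 1 and 0 higher. Ribosome biogenesis (20 genes) had 0, 3 and 3 lower. With replicates 1 and 2 alone 10.9% of all genes tested were called lower, and 3 of 20 lies near that share. Without replicate 3 more of all genes tested were called lower (1684 against 1533), so the count of 3 there is not set apart either. The proteasome (15 genes) had 0 called, then 1 higher, then 1 lower. Medulla genes (16, medians -0.70, -0.29 and 0.26) had 0, 0 and 1 higher. Fat-cell genes (12) had 0 in each fit, and the fat marker Adipoq was at 1.65, 75.2, 101, 92.4 and 137 FPKM before and 223, 64.1, 0.104 and 88.9 FPKM at 24 h. Lists of mast cells (5 tested) and Schwann cells (5) had 0, 0 and 1 higher, lymph node stroma (2) 0, 1 and 1 higher, and red blood cells (5), mesothelium (6), liver (3) and pancreas (1) had 0 in each fit. The gonad list holds 6 genes, among them Cyp17a1, which the before table does not list and which was highest in 24 h replicate 3. Of this list 1 gene was tested, Sox9, with a log2 fold change of 1.04 (adjusted p = 0.038, and 0.096 with replicates 1 and 2 alone, lost without any 1 of before replicates 2 to 5 or 24 h replicates 2 and 4, adjusted p between 0.072 and 0.1). Of these lists without a call by edgeR with all libraries, members at an unadjusted p under 0.05 numbered 3 for autophagy, 2 for the proteasome, 1 each for mitochondrial respiration, mast cells, red blood cells, mesothelium and lymph node stroma, and 0 for the others. DESeq2 called 1 mast cell gene higher and 1 gene lower in each of mitochondrial respiration, red blood cells and lymph node stroma, and 0 in the others. No member of the kidney and skeletal muscle lists was among the genes tested.

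**Figure D5:**
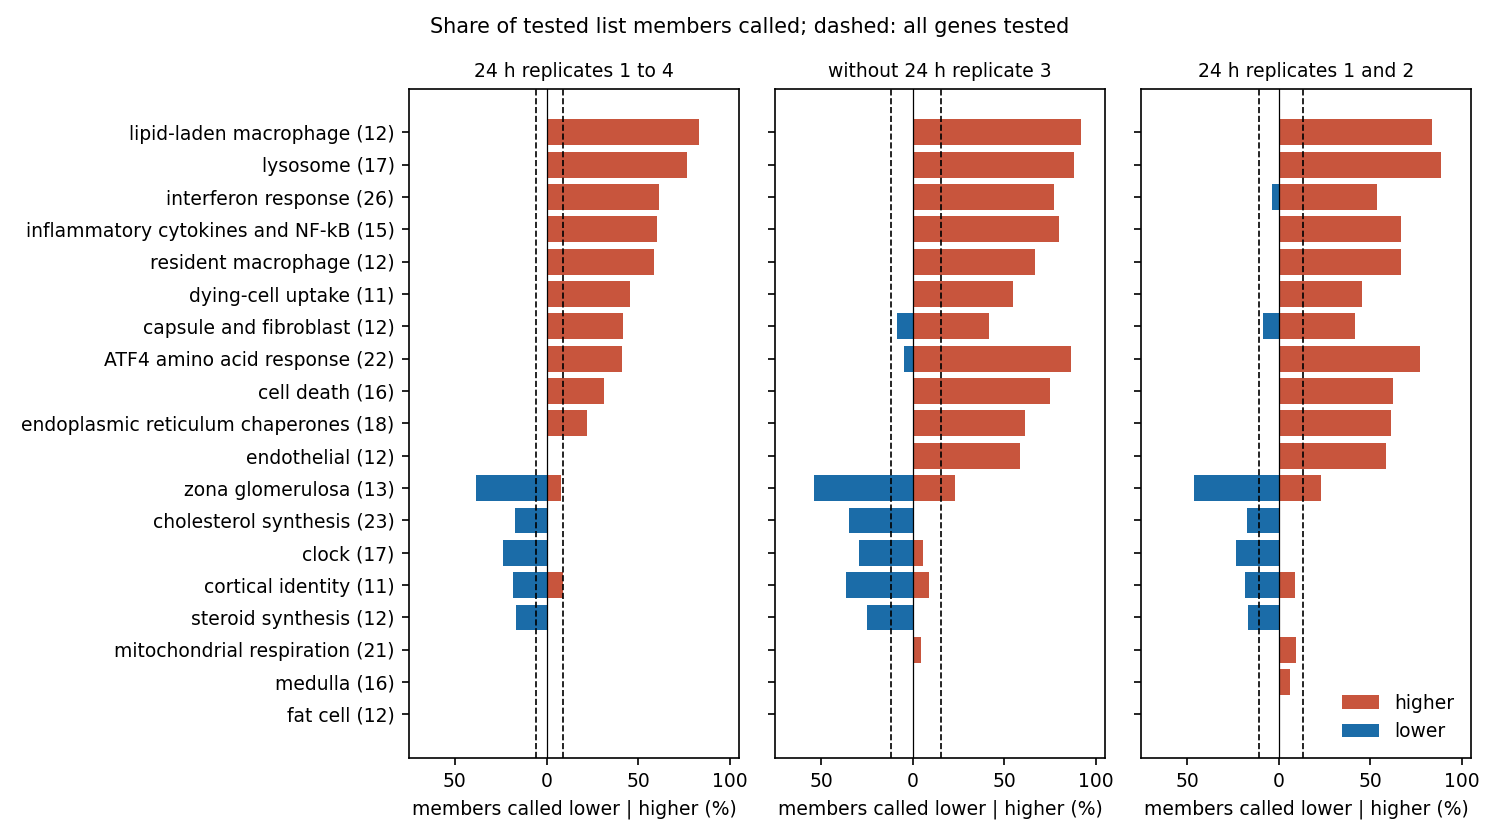
Share of tested members called higher (red, to the right) and lower (blue, to the left) for 19 lists, with the number tested in brackets, in 3 fits, and dashed lines at the share among all genes tested. Lipid-laden macrophage and lysosome genes lie far above the line in each fit, whereas ATF4 targets go from 9 of 22 with all libraries to 19 of 22 without replicate 3.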

How the data were processed

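Messenger RNA was measured by sequencing in samples labelled as adrenal gland, and 9 of 13 libraries were used here. The authors' deposited tables give 1 expected count (an estimated read count that need not be whole) and 1 FPKM value per RefSeq transcript and library, per the file headers. The submitters' processing notes name TopHat2 2.0.14, bcl2fastq 2.17 and the build mm10 (GRCm38). No source used here names the counting tool. Transcripts listed in both tables (18738, for 14078 genes) were used, and counts were summed per gene and rounded. Listed reads were 87.1% to 93.0% of the totals that the FPKM imply. Genes without a transcript that both tables list are not in the fit.

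The test was the quasi-likelihood one of edgeR 4.0.16 (R 4.3.3, limma 3.58.1) after filterByExpr and TMM scaling, with only the 2 groups in the fit and no block. Its p-values, used for genes throughout, were adjusted by Benjamini-Hochberg, with a threshold of 0.05. SE is the ratio of a fold change to the square root of its F. Shares of Star were compared with two-sided exact permutation tests. FPKM values were not rescaled between libraries, and list means used log2(FPKM + 0.1). On data simulated with the spread of the before libraries alone, the test found 56% of 2-fold and 92% of 4-fold changes and made 10 false calls in 13873 genes left as they were. These shares do not describe the power at the spread of the 24 h libraries.

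The comparison and the 54 gene lists (689 genes, 625 tested) were chosen with earlier results of these data known. Genes were named by rule, which took Star, the 10 largest rises and 10 largest falls among genes called in all 3 fits without overlap and with the higher group at 5 CPM or more on average, then per list the 3 called members of lowest p without overlap, or the lowest-p member where none was called. Of the 122 genes given with values in both groups, 94 follow the rule, and a few others that it takes are not reported here. The other 28 were chosen after their values were seen, namely Nr0b1, Cyp11b2, Cyp21a1, Cyp11b1, Cyp11a1, Mc2r, Shh, Wnt4, Axin2, Dab2, Trib3, Chac1, Ddit3, Hspa5, Isg15, Gbp2, Gars, Oas1a, Soat1, Scarb1, Arntl, Dbp, Akr1b7, Xist, Akr1c18, Chga, Adipoq and Gata4, as were Dhx58, Cebpb and Gli1, named without values. Promoters came from RefSeq tables of GRCm38.p6, matched by symbol. Alternatives were RLE scaling, no scaling, no filter, DESeq2 1.42.0, quality weights, a fit of all 13 libraries, a replicate block, leaving out each library, and 24 h replicates 1 and 2 alone.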

Additional observations from a re-analysis of the deposited data

Results flagged for a closer look

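A library was set apart when the gap between the highest or lowest library of a group and its nearest neighbour took up most of the group's range (Dixon's test at 95%). Of 250 groups of 4 or 5 libraries tested over the genes named here, 21 had such a library, and chance gives about 1 in 20. They were 24 h replicate 3 in 8 cases, before replicate 3 in 7, 24 h replicate 4 in 4 and before replicate 1 in 2.

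In 24 h replicate 3 the library was above the others of its group for Rdh1 (0.536 FPKM), Derl3 (20.2), Axl (119.7), Inha (246), Nr0b1 (5.87), Gata4 (83.0) and Axin2 (9.26), and below them for C1qb (153). In before replicate 3 it was above the others for Mc2r (301), Hspa5 (413), Gars (43.9), Scarb1 (2250.4), Arntl (31.5) and Akr1b7 (6795), and below them for Oasl2 (8.97). In 24 h replicate 4 Lgals3 (920.1), Tgfbi (245), Fth1 (4218) and F10 (8.25) were above the others. In before replicate 1 Fcgr1 (3.27) and Gata4 (6.81) were above the others.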

How the results depend on the processing

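Of the 101 called genes named here, 101 kept their call under RLE scaling, 98 without a scaling factor, 101 without the filter, 100 of 100 with DESeq2, 99 with quality weights, 100 with all 13 libraries, 90 with 24 h replicates 1 and 2 alone, and 80 to 101 when any 1 library was left out, and 0 were reversed. The naming rule took called genes of low p without overlap, and its largest changes had to be called in all 3 fits. How many kept their call was thus partly set by that choice. Among all genes called, 86.6% of those higher and 83.0% of those lower kept the call with replicates 1 and 2 alone. Counts of all genes moved more. DESeq2 called 1270 lower, the fit with replicates 1 and 2 alone 1533 lower, quality weights 2644 higher and 2416 lower, and leaving out 1 library gave 752 to 2167 higher and 408 to 1684 lower, with 2167 and 1684 without 24 h replicate 3. The fold change of Star then ran from -3.89 to -2.98. With 24 h replicates 1 and 2 alone the difference in the share of Star with the deletion was 84.0 points (exact permutation p = 0.0952, the smallest that 2 against 5 libraries can give).

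Correlations of the deviations of same-numbered libraries were -0.11, 0.16, -0.12 and -0.01 for replicates 1 to 4. They lay within the range of pairs with different numbers (-0.22 to 0.34). This check cannot exclude a pairing, since 24 h replicates 3 and 4 lack medulla RNA and replicate 3 also most cortical enzyme RNA. With a replicate block 140 genes were called higher and 64 lower, 25 of the 101 called genes named here kept their call, and Star had a log2 fold change of -3.98 (adjusted p = 0.14), in a fit of fewer residual degrees of freedom.

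Reversed signs were found for 4 genes that were not called. Cyp11a1 went from -0.04 to 0.41 with quality weights, 0.39 with replicates 1 and 2 alone, and -0.43 to 0.27 when any 1 library was left out (0.12 and 0.27 without before replicate 1 and 24 h replicate 3). Akr1c18 went from -0.73 to 1.06, 0.26 and, with the block, 1.77, and -1.75 to 0.23 when any 1 library was left out (0.23 without before replicate 4). Adipoq went from 0.24 to -0.07 with the block and without before replicate 1 and ranged from -0.61 (without 24 h replicate 1) to 0.67, and Gata4 from 3.35 to -0.62 with replicates 1 and 2 alone and ranged from -0.79 (without 24 h replicate 3) to 4.70. The cause was not tested.

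The number of libraries limits the precision. The quality weights of 24 h replicates 3 and 4 were 0.096 and 0.244 against 3.37 and 4.36 for before replicates 4 and 5.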

Other observations

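The table of the 24 h libraries lists 453 transcripts that the before table does not, and 110 genes have no transcript in the before table. They have no value before TAM in the tables used here, so they are described and not tested. Of the 110, 21 were over 3 times as high in 24 h replicate 3 as in each of the other 24 h libraries, against 1, 0 and 3 for replicates 1, 2 and 4. Among the 21, Gdnf, a growth factor, stood at 0.295, 0.195, 3.42 and 0.222 FPKM. Fosl1, an AP-1 subunit, stood at 5.01, 6.83, 0.0946 and 6.17 FPKM in 24 h replicates 1 to 4. Cox6a2, the muscle form of a cytochrome oxidase subunit, stood at 11, 14.6, 0.566 and 11.8 FPKM. Replicate 3 was the lowest for both. Nppb, a natriuretic peptide, stood at 3.46, 4.02, 0 and 1.68 FPKM, and Adm2, a peptide of the adrenomedullin family, at 3.03, 1.88, 1.14 and 4.53 FPKM. These 5 genes were chosen after their values were seen.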
